A study of Mus musculus with 9 samples.

Results

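The genes described here are 42 interferon-stimulated genes, followed across semimature CD4 single-positive thymocytes that express the OT-II T cell receptor. They were taken from a fixed list of gene symbols known for induction by interferon, and no measured value entered the rule itself. The list was chosen with earlier results of these data known, so its shares beside those of all genes are descriptions. All 42 were among the 24594 genes of the deposited table, and all 42 passed the filter of at least 1 RPKM (reads on a gene's exons, scaled to their length and to the library's exonic total) in at least 2 of the 9 libraries, which kept 11569 genes. The cells came from mixed bone marrow chimeras, 4.7 weeks after lethally irradiated hosts received marrow of 3 donors. OT-II control cells were Nr4a1+/+ Nr4a3+/+ from F1 animals of BoyJ and the transgenic strain B6.Cg-Tg(TcraTcrb)425Cbn/J, and double-knockout (DKO) cells carried the OT-II transgene and were labelled Nr4a1-/- Nr4a3-/- on C57BL/6. The third donor, non-transgenic wild-type marrow, was not analysed here. Per the labels, WT hosts were BoyJ, and RIPmOVA hosts were F1 animals of BoyJ and a C57BL/6 strain (WehiJ) with the transgene Tg(Ins2-TFRC/OVA)296Wehi, in which the rat insulin promoter drives a membrane form of ovalbumin that thymic epithelium also displays. All cells were sorted as CD4+ CD8- CD69+ Vα2+ Vβ5+. There were n = 2 OT-II and n = 3 DKO-labelled libraries from WT hosts, and n = 2 OT-II and n = 2 DKO-labelled libraries from RIPmOVA hosts. The labels name the mouse of each library, and the OT-II and DKO-labelled libraries with the same number and host came from the same chimera. Genotype cannot be told apart from the donor background. The methods of the study instead give both kinds of host as offspring of a RIPmOVA and BoyJ cross, so whether the hosts differed in background besides the transgene is not settled by the sources.

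Type I interferons bind the receptor made of Ifnar1 and Ifnar2, and the kinases Jak1 and Tyk2 then phosphorylate signal transducers such as Stat2. With Irf9 these form a complex called ISGF3, which binds the interferon-stimulated response element in the promoters of its target genes. The products act against viruses by sensing foreign RNA or DNA, by blocking translation or by tagging proteins with Isg15. Many are transcribed at a low tonic level without infection, and in the thymus medullary epithelium is a known source of interferon to which maturing single-positive thymocytes respond.

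The element is shown first in the promoters of 5 of these genes, since it is the sequence they share through which ISGF3 acts. The sequences are the 170 bases before the annotated transcription start in RefSeq (GRCm38.p6), written 5′ to 3′ on the strand of the gene. Capitals mark each match to the core motif GAAANNGAAA or to its reverse complement TTTCNNTTTC.
Isg15 (chr4:156200819-156200988, minus strand): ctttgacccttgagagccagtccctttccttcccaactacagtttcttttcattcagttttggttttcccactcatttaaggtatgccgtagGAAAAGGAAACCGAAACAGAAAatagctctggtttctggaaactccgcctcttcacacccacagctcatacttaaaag
Ifit1 (chr19:34640719-34640888, plus strand): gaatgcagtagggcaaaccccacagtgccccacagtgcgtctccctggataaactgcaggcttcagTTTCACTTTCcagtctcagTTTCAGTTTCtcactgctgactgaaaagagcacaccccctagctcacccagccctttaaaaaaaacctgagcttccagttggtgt
Ifit3 (chr19:34583359-34583528, plus strand): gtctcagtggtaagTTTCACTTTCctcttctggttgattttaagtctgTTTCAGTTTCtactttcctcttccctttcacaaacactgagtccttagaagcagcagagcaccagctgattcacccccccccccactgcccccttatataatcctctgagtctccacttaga
Rsad2 (chr12:26456453-26456622, minus strand): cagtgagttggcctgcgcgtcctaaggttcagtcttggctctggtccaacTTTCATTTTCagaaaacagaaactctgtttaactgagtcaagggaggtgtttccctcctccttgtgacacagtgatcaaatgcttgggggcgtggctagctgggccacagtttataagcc
Gbp3 (chr3:142559874-142560043, plus strand): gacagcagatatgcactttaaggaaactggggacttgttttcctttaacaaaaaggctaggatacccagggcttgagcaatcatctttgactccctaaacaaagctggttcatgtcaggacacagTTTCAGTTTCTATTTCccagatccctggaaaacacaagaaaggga
Isg15 held 3 overlapping matches, starting 78, 72 and 66 bases before the start. Ifit1 and Ifit3, neighbours on chromosome 19, each held 2 separate matches on the opposite strand, in Ifit1 at 104 and 85 and in Ifit3 at 156 and 122 bases before the start. Rsad2 held 1 match and Gbp3 held 2 that overlap.

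RefSeq promoter windows of 300 bases (250 before and 50 after the start) were available for 33 of the 42 genes. Of these, 20 held the motif on either strand, overlapping matches included, against 3.99% of the 27025 genes with a window. The 20 were spread over the role classes: the guanylate-binding proteins Gbp2, Gbp3 and Gbp7, the immunity-related GTPases Igtp and Irgm1, the HIN-200 genes Ifi203, Ifi208 and Ifi213, the sensors Ddx58 and Ifih1, and Oas1a, Oas3, Bst2, Eif2ak2, Stat2 and Trim30a besides those shown. The other 13 windows, among them those of Irf7, Irf9, Ifi44, Oasl2 and Ifit2, did not hold these letters. A second motif, TTCNNNGAA, the core of the gamma-activated site, was in the windows of 9 of the 33 genes and of 9.55% of all genes. A match describes the sequence and is not a measured binding site.

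**Figure D1:**
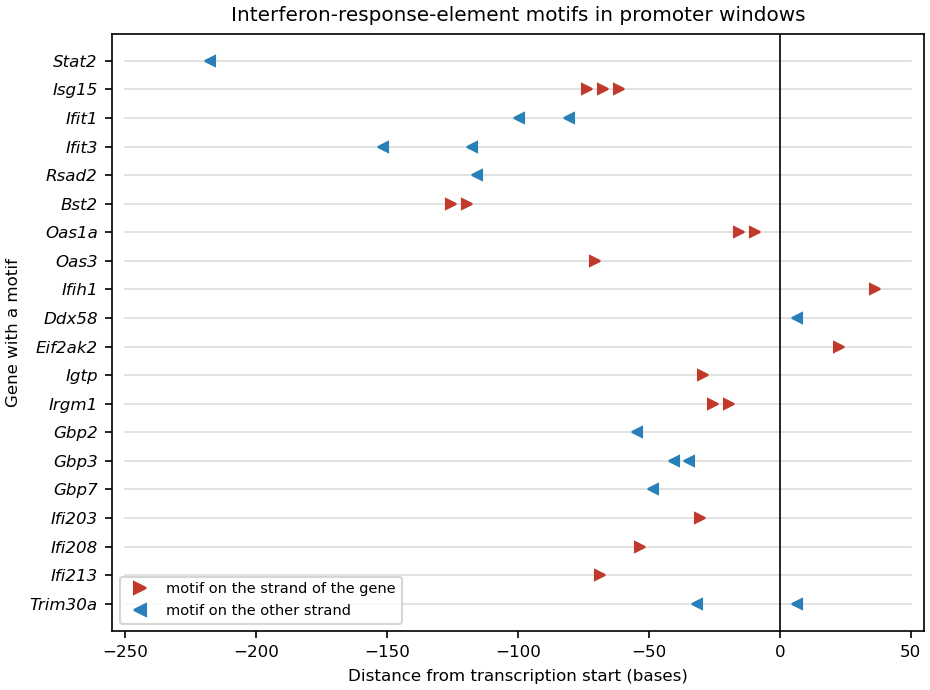
Position of each match to the response-element motif (arrowheads, pointing right on the strand of the gene and left on the other strand) along the promoter windows of the 20 interferon-stimulated genes that held one, in bases from the transcription start. In 16 of the 20 genes a match began within 160 bases before the start, and Trim30a is shown relative to 2 annotated starts.

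Recovered depth was 15520000 to 25050000 reads per library, at which 3 reads on a 1 kb gene equal 0.120 to 0.193 RPKM. The member with the fewest reads in any library, Mx1, still had at least 77. The cells expressed Cd4, a marker of the sorted population, at 189 to 241 RPKM, and Rag1, a gene of the preceding double-positive stage, reached at most 2.94. Although the cells were sorted as CD8-, Cd8b1 was 54.451 to 96.398 RPKM over the libraries, and Cd8a was 1.764 to 7.603. Gene-level RPKM did not show the deletion. In WT hosts the level of Nr4a1 was 73.4 ± 17.9 RPKM (SD, n = 2) for OT-II cells and 76.0 ± 14.3 (SD, n = 3) for DKO-labelled cells. Nr4a3 was at most 0.665 RPKM in WT hosts. In RIPmOVA hosts Nr4a3 was 5.66 and 3.72 RPKM in OT-II cells, and higher, at 16.5 and 14.1, in DKO-labelled cells. The libraries are therefore called DKO-labelled throughout. Markers of other cell types were mixed. Of those for plasmacytoid dendritic cells, Siglech and Tcf4 reached at most 0.412 and 0.829 RPKM, while Ccr9, which thymocytes also express, was 36.6 to 65.3. Of 6 for dendritic cells and macrophages, Itgax reached 0.158, Adgre1 0.475, Csf1r 0.578, Cd68 1.49, Xcr1 1.50 and Lyz2 18.7 RPKM, and their summed level was 3.07 to 9.29 RPKM in OT-II cells and 2.46 to 5.70 in DKO-labelled cells of WT hosts, and 10.4 to 20.2 and 5.22 to 6.37 in those of RIPmOVA hosts. The erythroid marker Hba-a1 was 13.94 RPKM in OT-II cells of WT chimera 2 and 12.984 in DKO-labelled cells of WT chimera 3. In the other libraries Hba-a1 reached at most 1.239. Epcam, a marker of thymic epithelium, was 2.241 to 10.204 RPKM over the libraries. In bulk libraries, fewer cells of a type and less RNA per cell cannot be told apart.

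Mean levels over the 9 libraries ran from 1.69 RPKM for Mx1 to 471 RPKM for Ifi27l2a, with a median of 28.4 RPKM, and 33 of the 42 genes had a mean above 10 RPKM. RPKM is scaled to exon length, so levels may be set side by side. A limit is that exons of 17 of the 42 genes overlap those of another gene, with which they may share reads. Ifi27l2a, a small membrane protein, was 368 and 401 RPKM in OT-II cells of WT chimeras 1 and 2, and 527, 413 and 319.8 in DKO-labelled cells of WT chimeras 1 to 3. It was 532 and 368 in OT-II cells of RIPmOVA chimeras 1 and 2, and 668 and 641 in their DKO-labelled cells, and the libraries of that DKO-labelled group lay above all other libraries. Isg15, the ubiquitin-like modifier, was 106 and 88.5 RPKM in OT-II cells of WT chimeras 1 and 2, and 190.2, 93.8 and 107 in DKO-labelled cells of WT chimeras 1 to 3. In RIPmOVA hosts Isg15 was 95.5 and 79.6 RPKM in OT-II cells and 103 and 106 in DKO-labelled cells, so that one library, DKO-labelled from WT chimera 1, stood above the others. Gbp2, a guanylate-binding protein that targets the membranes of intracellular pathogens, had means of 92.1 ± 31.8 RPKM (SD, n = 2) and 86.4 ± 17.3 (SD, n = 3) in the OT-II and DKO-labelled groups of WT hosts. Its means in RIPmOVA hosts were 81.6 ± 9.99 and 97.0 ± 11.1 RPKM (SD, n = 2 each). Bst2, or tetherin, which holds budding virions at the cell surface, was 82.9 and 72.6 RPKM in OT-II cells of WT chimeras 1 and 2, and 121, 74.7 and 81.2 in DKO-labelled cells of WT chimeras 1 to 3, and 83.9 and 68.9 in OT-II cells of RIPmOVA chimeras 1 and 2, and 83.3 and 80.6 in their DKO-labelled cells. Its highest library was again DKO-labelled from WT chimera 1. Ifit1, which binds viral RNA caps, had 99.1 and 62.7 RPKM in OT-II cells and 158, 63.4 and 65.7 in DKO-labelled cells of the WT hosts. In RIPmOVA hosts Ifit1 was 70.0 and 62.1 RPKM in OT-II cells and 70.7 and 80.8 in DKO-labelled cells, all below both libraries of WT chimera 1. Gbp2, Bst2, Ifit1 and the Z-nucleic-acid sensor Zbp1, at 54.3 to 93.9 RPKM, overlapped in their ranges over the libraries, so their order by mean is not beyond the spread.

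Lower classes followed. The HIN-200 gene Ifi208 was 67.9 and 48.5 RPKM in OT-II cells of WT chimeras 1 and 2, and 70.6, 46.1 and 45.2 in DKO-labelled cells of WT chimeras 1 to 3, and 34.6 and 38.5 in OT-II cells of RIPmOVA chimeras 1 and 2, and 41.5 and 50.7 in their DKO-labelled cells. Its RIPmOVA OT-II libraries were the lowest pair. Irf7, the transcription factor that amplifies interferon production, ranged from 31.7 to 52.3 RPKM, and Dtx3l, a ubiquitin ligase that works with Parp9, from 28.6 to 42.6. Irf7 and Dtx3l did not differ beyond their spread. Exons of Dtx3l and Parp9 overlap on opposite strands, and those of Irf7 overlap Phrf1, and the use of strand in counting was not stated, so reads in the overlaps cannot be assigned to one gene. Oas3, an oligoadenylate synthetase that switches on RNase L, was 6.46 and 13.2 RPKM in OT-II cells of WT chimeras 1 and 2, and 18.1, 17.3 and 11.1 in DKO-labelled cells of WT chimeras 1 to 3, and 9.52 and 10.6 in OT-II cells of RIPmOVA chimeras 1 and 2, and 14.7 and 13.8 in their DKO-labelled cells. Its highest and lowest libraries were the DKO-labelled and the OT-II library of the same chimera. The antiviral dynamin Mx1, which many laboratory strains carry in a defective form, had the lowest mean, with 1.18 and 1.86 RPKM in OT-II cells and 1.50 and 2.11 in DKO-labelled cells from RIPmOVA hosts. Between its highest and lowest library a member differed by a factor of 1.24 (Ddx58, the RNA sensor RIG-I) to 9.02 (Mx1), with a median factor of 1.93.

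**Figure D2:**
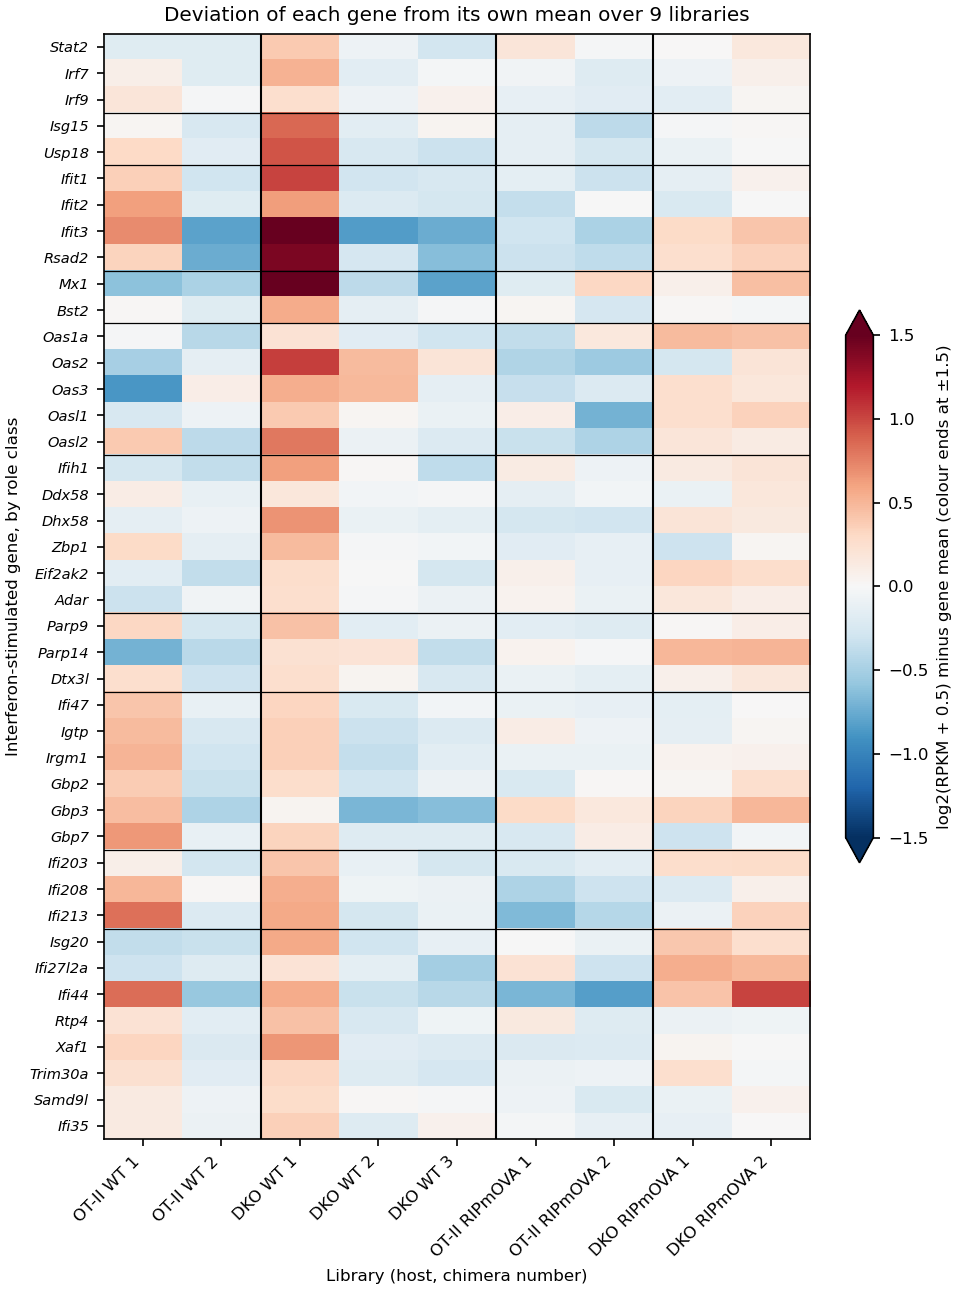
Deviation of log2(RPKM + 0.5) of each of the 42 genes (rows, grouped by role) from its own mean over the 9 libraries (columns, grouped by genotype and host, numbered by chimera). The DKO-labelled library from WT chimera 1 lies above the mean for 42 of 42 genes and the OT-II library of the same chimera for 29.

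Levels of these genes varied between animals of the same group. Both libraries of WT chimera 1 held more transcript of most interferon-stimulated genes than the other libraries from WT hosts. All 42 genes were highest in the DKO-labelled library of chimera 1 among the 3 DKO-labelled libraries from WT hosts, a pattern shared by 25.2% of the 11569 genes. Between the OT-II libraries, 32 of 42 genes were higher in chimera 1 than in chimera 2, against 55.3% of all genes. Both held for 32 genes (76.2%) and for 15.8% of all genes. On the log2(RPKM + 0.5) scale, the median ratio of chimera 1 to the other libraries of its group was 1.53 in DKO-labelled and 1.31 in OT-II cells, where all genes had medians of 0.988 and 1.03. Of the 9 libraries, the DKO-labelled library of chimera 1 had the highest value for 30 of 42 genes, and for 9.29% of all genes. Rescaling by median-of-ratios left these counts at 42 and 31, and quantile normalization at 41 and 33. One animal is 1 sample, so these are descriptions without a test.

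The genes with the largest differences were antiviral effectors, named here after their values had been seen. Ifit3, of the same family as Ifit1, was 37.5 and 12.8 RPKM in OT-II cells of WT chimeras 1 and 2. It was 77.6, 12.5 and 13.3 in DKO-labelled cells of WT chimeras 1 to 3. Its values in RIPmOVA hosts, 18.4 and 16.2 in OT-II cells of RIPmOVA chimeras 1 and 2, and 27.8 and 30.5 in their DKO-labelled cells, lay between those extremes. Ifit3 (chr19:34583531-34588731, GRCm38, plus strand) has a near-identical neighbour, Ifit3b, at 30.1 RPKM in the DKO-labelled library of chimera 1 and 5.35 and 4.41 in the others of its group, and how reads were split between them is uncertain. Rsad2, or viperin, which makes a chain-terminating nucleotide, was 6.00 and 2.60 RPKM in OT-II cells of WT chimeras 1 and 2, and 13.3, 3.83 and 2.81 in DKO-labelled cells of WT chimeras 1 to 3. Ifit1 and Usp18, the protease that removes Isg15 and dampens the receptor, were 2.44 and 2.37 times the mean RPKM of the other DKO-labelled libraries from WT hosts. Mx1 parted the genotypes: it was 0.748 and 0.869 RPKM in OT-II cells of WT chimeras 1 and 2, and 5.38, 0.950 and 0.596 in DKO-labelled cells of WT chimeras 1 to 3, so that within chimera 1 the DKO-labelled library was high and the OT-II library was not. The other members lower in OT-II cells of chimera 1 than of chimera 2 were Dhx58, Isg20, Oas2, Stat2, Ifi27l2a, Oasl1, Oas3, Parp14 and Adar. All 6 interferon-inducible GTPases and all 3 HIN-200 genes were higher in both libraries of chimera 1.

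Genes outside the 42 moved with them. Of 82 further interferon-stimulated genes tested, 71 were highest in the DKO-labelled library of chimera 1 within its group, 73 were higher in the OT-II library of chimera 1 than in that of chimera 2, and 66 (80.5%) did both. Irf1, a transcription factor induced by interferon, was 94.6 and 73.8 RPKM in OT-II cells of WT chimeras 1 and 2, and 85.0, 67.1 and 73.6 in DKO-labelled cells of WT chimeras 1 to 3. It was highest in chimera 1 in each genotype. In the DKO-labelled library of chimera 1, Siglech was 0.0660, Tcf4 0.399, Itgax 0.0150 and Lyz2 of myeloid cells 0.935 RPKM, none of them the highest of its group. Of 17 markers of B cells, plasmacytoid and other dendritic cells, macrophages, natural killer cells and thymic epithelium, 0 were highest in the DKO-labelled library of chimera 1 within its group, but 14 were higher in the OT-II library of chimera 1 than in that of chimera 2. In those OT-II libraries Lyz2 was 7.54 and 1.65 RPKM, Siglech 0.160 and 0.0540, Tcf4 0.645 and 0.406, Itgax 0.158 and 0.0160, and the B cell gene Ms4a1 0.784 and 0.0980. The part of these cell types in the OT-II result was not tested. Reads on sensory receptor genes, which thymocytes do not use, were 1135 RPM (reads scaled to the library total) in the OT-II and 505 RPM in the DKO-labelled library of chimera 1, against 293 to 1484 over all libraries. The receptor gene Olfr56 shares exons with the member Ifi47 on the same strand, so this measure may hold some reads of Ifi47. The part of sensory receptor reads in the result was not tested.

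**Figure D3:**
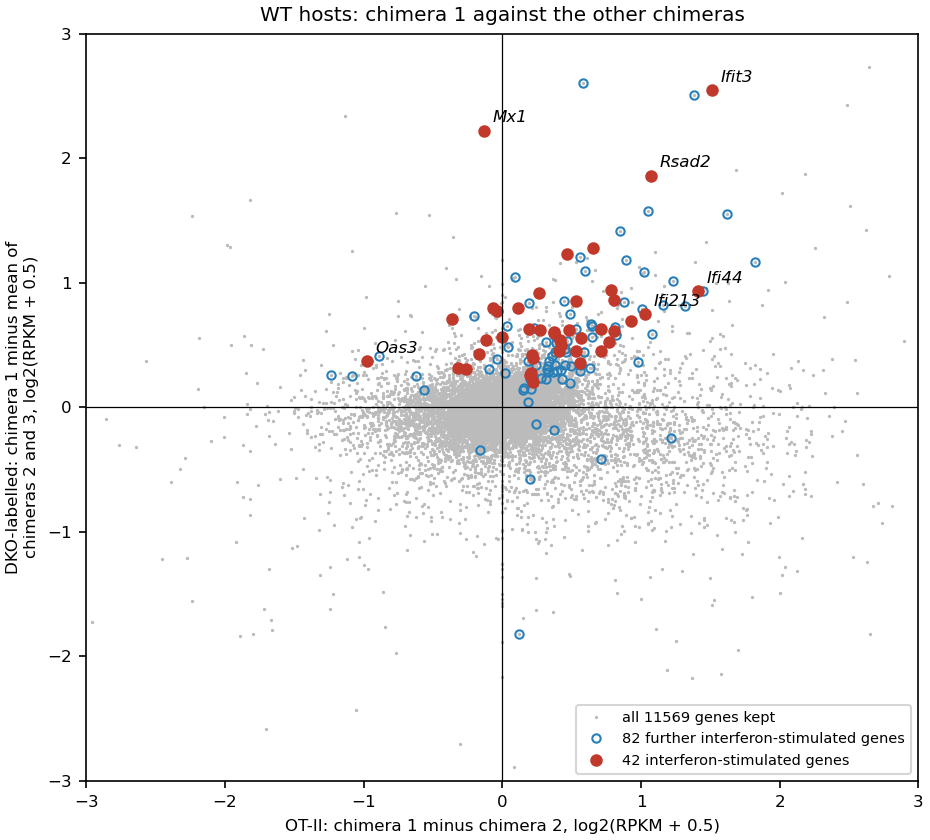
Log2 difference of WT chimera 1 from the other chimeras in WT hosts, in OT-II libraries (x axis, chimera 1 minus chimera 2) and in DKO-labelled libraries (y axis, chimera 1 minus the mean of chimeras 2 and 3), for all 11569 genes (grey, 13 outside the plotted range of ±3), 82 further interferon-stimulated genes (blue circles) and the 42 interferon-stimulated genes (red). All 42 lie above 0 on the y axis and 32 lie to the right of 0.

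The comparison of RIPmOVA with WT hosts in OT-II cells asks what meeting ovalbumin in the thymus did to these transcripts. None of the 42 genes was called, which took both a limma adjusted p of at most 0.05 and a log2 change of 1 or more in size, where 1.23% of all genes were called, and none reached that adjusted p at any fold. At an unadjusted p under 0.05 there were 3 members (1 higher and 2 lower in RIPmOVA hosts), against 14.3% of all genes. The median log2 fold change of the 42 genes was -0.14, with 11 above 0, and that of all genes was -0.02. Libraries of the groups did not overlap for 6 genes that were higher and 5 that were lower in RIPmOVA hosts, against 19.4% and 22.1% of all genes. Parp14, a mono-ADP-ribosyltransferase, had the smallest p, at 9.23 and 11.6 RPKM in WT and 16.0 and 15.3 in RIPmOVA hosts. Its groups did not overlap, with a log2 fold change of 0.57 (SE 0.20, adjusted p = 0.216). The HIN-200 genes, a family of nuclear DNA-binding proteins in 1 cluster on chromosome 1, lay on the other side. Ifi208 had a log2 fold change of -0.65 (SE 0.23, adjusted p = 0.23) and Ifi213, at 17.2 and 8.16 RPKM in WT and 5.84 and 6.94 in RIPmOVA hosts, one of -0.85 (SE 0.35, adjusted p = 0.309). The 95% intervals of 31 of the 42 genes lay within ±1, so a 2-fold change was outside them, and for the other 11 it was not. Without the libraries of chimera 1 the median turned to 0.06, with 29 genes above 0 and 0 called. In that fit Ifi213 had -0.33 (SE 0.20, adjusted p = 0.74) and Ifi208 -0.40 (SE 0.15, adjusted p = 0.401). Without the OT-II library of WT chimera 2, Ifi213 was called at -1.36 (adjusted p = 0.049). In either fit the OT-II group from WT hosts was 1 library, assumed to vary like the other groups. The larger change rested on the 17.2 RPKM of chimera 1. In the fit over all libraries, 2 of 13 maturation markers tested were called, both higher in RIPmOVA hosts. They were Cd24a at 1.23 (SE 0.22, adjusted p = 0.028) and H2-Q6 at 2.27 (SE 0.43, adjusted p = 0.034). The regulatory T cell marker Il2ra was called higher too, at 1.88 (SE 0.29, adjusted p = 0.016). Their part in the members' change was not tested.

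In DKO-labelled cells the same change of host gave 0 of 42 members called, against 1.68% of all genes, and 5 members at an unadjusted p under 0.05 (4 higher and 1 lower), against 17.6%. The median log2 fold change was 0.02 with 22 genes above 0, and 0.03 over all genes. After median-of-ratios rescaling the medians were -0.15 and -0.14, so the members lay close to all genes on either scale. Without overlap between the groups, 4 genes were higher and 1 was lower in RIPmOVA hosts, against 22.7% and 17.3% of all genes. Ifi27l2a had a log2 fold change of 0.67 (SE 0.20, adjusted p = 0.128), and both RIPmOVA libraries lay above the 3 from WT hosts. Gbp3 was 5.05, 2.87 and 2.98 RPKM in WT and 6.33 and 7.12 in RIPmOVA hosts, with a log2 change of 0.84 (SE 0.28, adjusted p = 0.166). For Parp14 it was 0.48 (SE 0.18, adjusted p = 0.207), with 18.2, 17.9 and 11.8 RPKM in WT and 22.1 and 22.2 in RIPmOVA hosts. Oas2 was the member that was lower at an unadjusted p under 0.05, with 16.3, 10.8 and 8.87 RPKM in WT and 6.29 and 8.84 in RIPmOVA hosts. Here 34 of the 42 intervals lay within ±1.

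The libraries of chimera 1 set part of this outcome. Without them, in a fit added after the data were seen that leaves 1 OT-II library from WT hosts and assumes it varies like the other groups, the median in DKO-labelled cells was 0.23 with 38 of 42 genes above 0, beside 0.02 over all genes. Of the 42 genes, 3 were then called higher in RIPmOVA hosts, where 1.59% of all genes were called. They were Ifit3 at a log2 fold change of 1.15 (SE 0.11, adjusted p = 0.0021), Gbp3 at 1.08 (SE 0.13, adjusted p = 0.0055) and Ifi44 at 1.10 (SE 0.19, adjusted p = 0.026). In that fit the RIPmOVA libraries were compared with DKO-labelled libraries 2 and 3 only, and the samples were chosen by the level of these genes in chimera 1, so the calls are a description of those libraries.

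**Figure D4:**
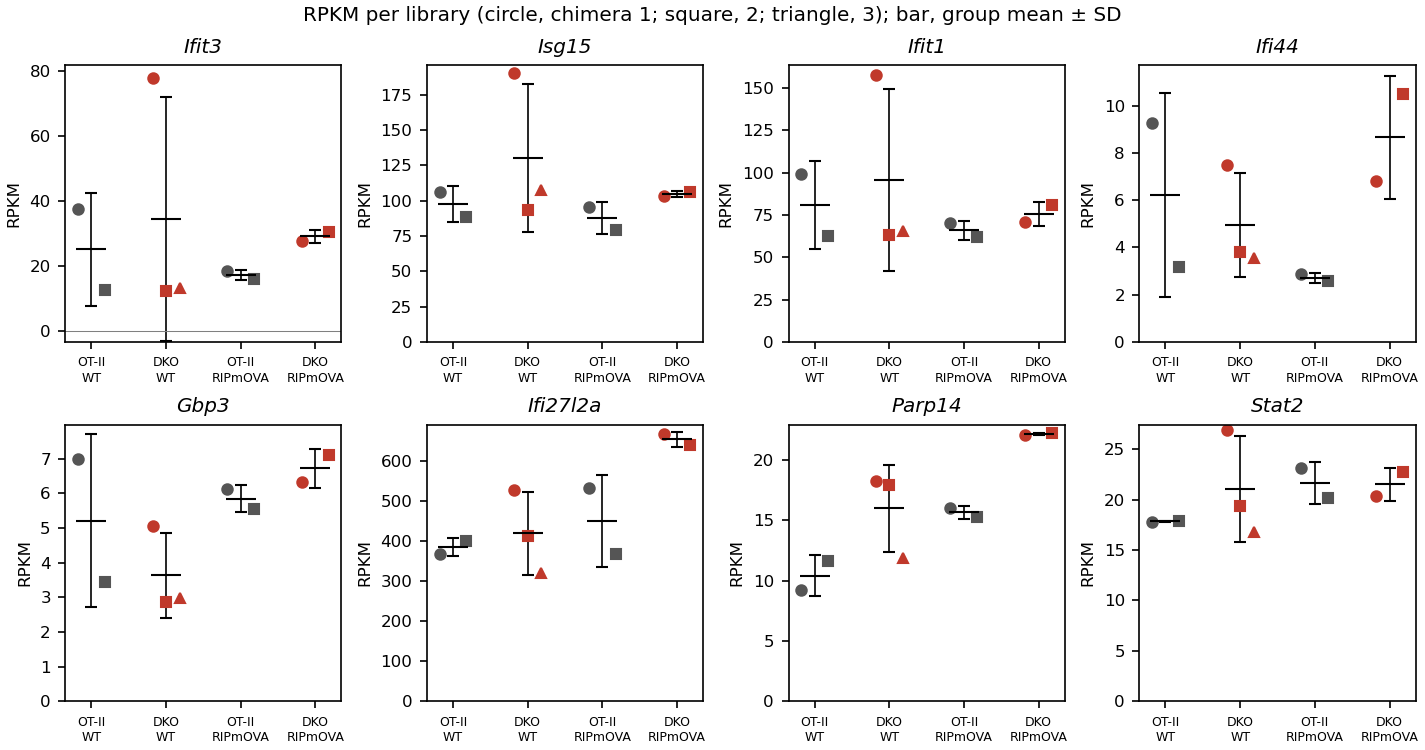
RPKM of 8 of the 42 genes in each library (circles, chimera 1; squares, chimera 2; triangle, chimera 3; grey, OT-II; red, DKO-labelled), with the group mean ± SD (n = 2, and n = 3 for DKO-labelled cells from WT hosts). The circle of DKO-labelled cells from WT hosts stands apart for Ifit3, Isg15 and Ifit1, and both DKO-labelled libraries from RIPmOVA hosts lie above the OT-II pair for Ifi44, Ifi27l2a and Parp14.

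The comparison of DKO-labelled with OT-II cells in RIPmOVA hosts asks what differed between donors that met the antigen in the same animals. Again 0 of 42 members were called, against 1.07% of all genes, and 5 were at an unadjusted p under 0.05, all higher in DKO-labelled cells, against 21.4% of all genes. The median log2 fold change was 0.21 with 38 of 42 above 0, and 0.04 over all genes with 56.5% above 0. Under median-of-ratios rescaling the median of all genes moved to -0.18 and that of the 42 genes to 0.00190, with 21 above 0. The distance between members and all genes was thus 0.17 as deposited and 0.18 rescaled. The factors of that rescaling came from all genes above 0 in every library, before the filter. They were largest, at 1.06 to 1.14, in the 4 libraries with the most sensory receptor reads, at 1043 to 1484 RPM. Both DKO-labelled libraries from RIPmOVA hosts were among them. The part of those reads in the rescaling was not tested. Members that were higher in both DKO-labelled than in both OT-II libraries numbered 28, against 34.6% of all genes, and members that were lower numbered 0, against 24.4%. All 5 oligoadenylate synthetases (median 0.56), all 4 IFIT and viperin genes (median 0.42) and all 3 HIN-200 genes (median 0.46) had a log2 fold change above 0. So did all 6 RNA and DNA sensors (median 0.16), all 3 PARP and DTX3L genes (0.24), both dynamin-like and tetherin genes (0.15) and both genes of the Isg15 system (0.20). Of the 6 interferon-inducible GTPases 4 were above 0, with a median of 0.10. Reads on sensory receptor genes moved with this comparison, at 1043 and 1484 RPM in DKO-labelled and 552 and 293 in OT-II libraries, and with that level as a covariate the members' median was 0.13. Its part in the result was not tested beyond that fit. Markers of maturation and of regulatory T cells moved in this comparison too. S1pr1, which lets mature thymocytes leave the thymus, had means of 42.6 ± 0.868 RPKM in OT-II cells and 103 ± 10.7 in DKO-labelled cells (SD, n = 2 each), and of 13 maturation markers tested it was the 1 called, at 1.26 (SE 0.12, adjusted p = 0.002). Sox4, a gene of immature thymocytes, had -0.78 (SE 0.13, adjusted p = 0.024), under the size for a call, and Klf2, which drives S1pr1, had 0.52 (SE 0.13, adjusted p = 0.084). Of both regulatory T cell markers tested, Foxp3 was called, at -2.37 (SE 0.40, adjusted p = 0.02), from 1.90 and 3.31 RPKM in OT-II cells to 0.0920 and 0.0770 in DKO-labelled cells. The part of maturation or of cell types in the members' change was not tested.

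Ifi44, a cytoplasmic protein with a GTP-binding region (chr3:151730922-151749960, GRCm38, minus strand), had the smallest p in RIPmOVA hosts. It was 2.87 and 2.57 RPKM in OT-II cells and 6.83 and 10.5 in DKO-labelled cells, with a log2 fold change of 1.48 (SE 0.45, adjusted p = 0.117). The DKO-labelled library was higher in both chimeras. With the chimera as a block, which pairs the libraries by animal, the adjusted p was 0.041 and Ifi44 was called. It was also called when only the 4 RIPmOVA libraries were fitted (adjusted p = 0.034). Fits without either OT-II library from WT hosts, or without both libraries of WT chimera 1, left 1 library in that OT-II group. The latter fit was added after the data were seen, and its log2 fold change was also 1.48. The fits that called Ifi44 left the spread between those OT-II libraries out of the error or set it against the chimera. Ifi44 was named for the smallest p, so these fits are not separate support for its change. With sensory receptor reads as a covariate its log2 fold change was 0.86 (adjusted p = 0.811). In WT hosts Ifi44 was 9.26 and 3.16 RPKM in OT-II cells and 7.47, 3.81 and 3.56 in DKO-labelled cells, higher in chimera 1 of either genotype. Oas1a had a log2 fold change of 0.57 (SE 0.22, adjusted p = 0.189) in RIPmOVA hosts, with 7.43 and 10.9 RPKM in OT-II cells and 13.8 and 13.4 in DKO-labelled cells. For Ifi27l2a it was 0.56 (SE 0.22, adjusted p = 0.2). The intervals of 30 members lay within ±1.

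Between DKO-labelled and OT-II cells of WT hosts, none of 42 genes was called, against 0.0605% of all genes, and 3 were at an unadjusted p under 0.05, all higher in DKO-labelled cells, against 7.89%. The median was 0.08 with 30 above 0, and 0.01 over all genes. Groups did not overlap for 3 members, all higher, against 10.5% of genes for higher and 10.3% for lower. Oas2, which makes the activator of RNase L, was 5.28 and 6.92 RPKM in OT-II cells of WT chimeras 1 and 2, and 16.3, 10.8 and 8.87 in DKO-labelled cells of WT chimeras 1 to 3, a log2 fold change of 0.89 (SE 0.24, adjusted p = 0.317) with no overlap. Parp14 and Oas3 had log2 fold changes of 0.58 (SE 0.18, adjusted p = 0.408) and 0.68 (SE 0.28, adjusted p = 0.584). The 6 interferon-inducible GTPases all had values below 0, with a median of -0.16. Without both libraries of chimera 1, which leaves 1 OT-II library in WT hosts, Oas2 had 0.47 (SE 0.21), Parp14 0.32 (SE 0.21) and Oas3 0.07 (SE 0.23), each with an adjusted p = 1, and 0 members were at an unadjusted p under 0.05. The median of the GTPases was then -0.03, with Gbp2 and Irgm1 above 0, at 0.14 and 0.04. Intervals of the fit with all libraries lay within ±1 for 35 members.

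Set within each animal, the DKO-labelled library was the higher of the pair for 34 of 42 genes in WT chimera 1, 27 in WT chimera 2, 31 in RIPmOVA chimera 1 and 41 in RIPmOVA chimera 2, against 46.8%, 53.8%, 54.9% and 56.6% of all genes. In all 4 chimeras it was higher for 20 genes (47.6%), and for 14.4% of all genes. Those 20 included Isg15, Ifit1, Rsad2, the sensors Ifih1 and Ddx58, Eif2ak2, Adar and the 5 oligoadenylate synthetases. After median-of-ratios rescaling the count in all 4 chimeras was 7 members (16.7%) and 6.06% of all genes. The counts were then 38 members in WT chimera 1, 10 in WT chimera 2, 20 in RIPmOVA chimera 1 and 22 in RIPmOVA chimera 2, against 63.5%, 27.5%, 36.4% and 29.0% of all genes. With quantile normalization they were, in the same order, 33, 32, 31 and 40 members, against 48.5%, 46.8%, 49.1% and 51.0% of all genes. In all 4 chimeras the quantile count was 23 members (54.8%), and 12.6% of all genes. The direction of single genes within a chimera thus depends on the scaling.

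The interaction, the host effect in DKO-labelled minus that in OT-II cells, tests whether the donors differed in their response to the host. No member was called, against 0.0173% of all genes, and 1 was at an unadjusted p under 0.05, against 9.32%. Ifi44 had 1.68 (SE 0.61, adjusted p = 0.506), Ifi213 had 0.92 (SE 0.47, adjusted p = 0.551) and Ifi27l2a had 0.46 (SE 0.30, adjusted p = 0.599). The median was 0.14 over the members and 0.03 over all genes as deposited, and -0.10 and -0.20 after median-of-ratios rescaling. The intervals of 22 members lay within ±1, and those of the other 20 reached beyond it.

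**Figure D5:**
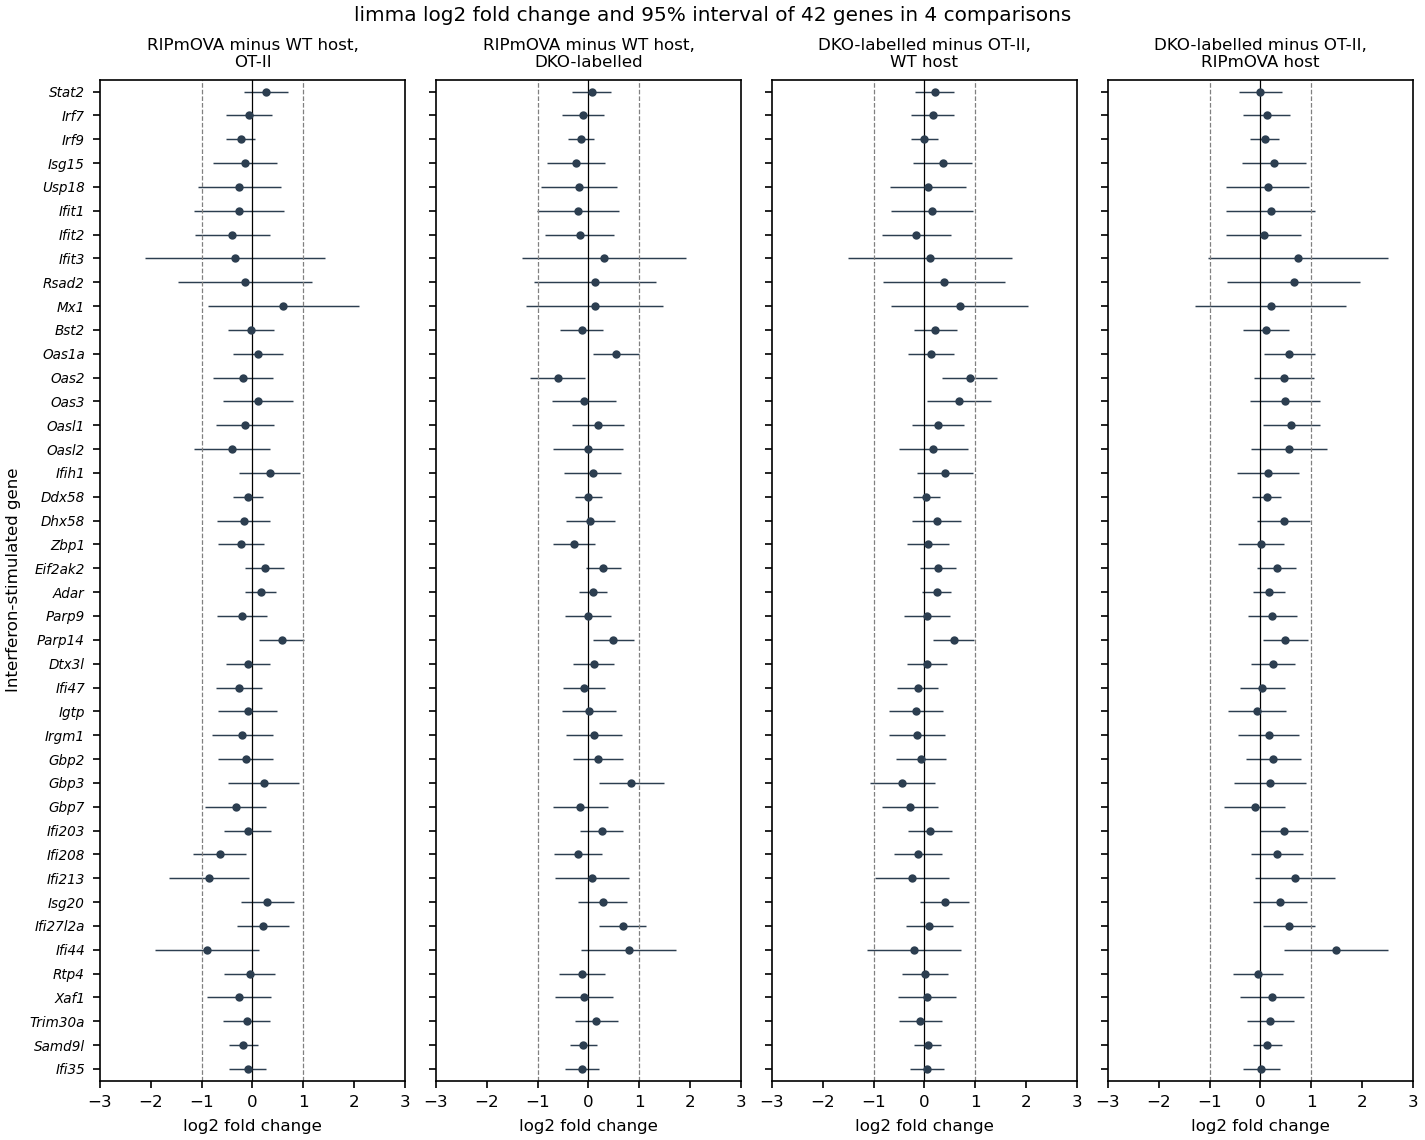
Log2 fold change (points) with its 95% interval (lines) of the 42 genes in the comparisons of hosts within a genotype and of genotypes within a host, from the fit over all 9 libraries. Most intervals cross 0, and the widest are those of Ifit3, Mx1 and Rsad2, which spread widely between chimera 1 and the other WT chimeras in DKO-labelled cells.

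The pathway around these genes was present in all libraries. The receptor chains Ifnar1 and Ifnar2 ranged over 24.7 to 34.6 and 11.6 to 17.8 RPKM, and the interferon-gamma receptor chains Ifngr1 and Ifngr2 over 30.7 to 42.6 and 27.0 to 33.9 RPKM. Of 5 receptor genes tested, 0 were called in any comparison. Ifnar1 had a log2 fold change of 0.35 (SE 0.08, adjusted p = 0.048) between hosts in DKO-labelled cells, below the size that a call took. Of 9 genes of signal transduction, 0 were called. Stat5a had an adjusted p of at most 0.05, with a change under the limit, in 3 comparisons, with log2 fold changes of 0.86 (SE 0.11, adjusted p = 0.0061) between hosts in OT-II cells, 0.60 (SE 0.10, adjusted p = 0.015) in DKO-labelled cells and -0.61 (SE 0.11, adjusted p = 0.028) between genotypes in RIPmOVA hosts. Stat4 had 0.76 (SE 0.12, adjusted p = 0.011) between hosts in DKO-labelled cells.

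Among 10 interferon regulatory factors and their binding partners outside the 42, 2 were called between hosts in OT-II cells and 1 in DKO-labelled cells, all higher in RIPmOVA hosts, where 1.23% and 1.68% of all genes were called. Irf8, known for its part in myeloid and B cells, was 1.39 and 0.957 RPKM in OT-II cells of WT chimeras 1 and 2, and 1.03, 1.30 and 1.10 in DKO-labelled cells of WT chimeras 1 to 3, and 7.52 and 5.82 in OT-II cells of RIPmOVA chimeras 1 and 2, and 4.97 and 4.53 in their DKO-labelled cells. It rose by 2.10 (SE 0.19, adjusted p = 0.0016) in OT-II and by 1.68 (SE 0.18, adjusted p = 0.0017) in DKO-labelled cells, with no overlap between hosts. Irf5 rose by 1.67 (SE 0.32, adjusted p = 0.037) in OT-II cells, from 0.345 and 0.342 to 1.98 and 2.40 RPKM. The myeloid gene Lyz2 was 18.7 and 8.44 RPKM in these OT-II cells of RIPmOVA chimeras and 7.54 and 1.65 in those from WT hosts, and Itgax was at most 0.158 RPKM in any library. The part of myeloid RNA in the result was not tested. Of 12 negative regulators tested none was called, and Socs1, an inhibitor of the Jak kinases, had -0.53 (SE 0.11, adjusted p = 0.049) between genotypes in RIPmOVA hosts. Of 9 genes of sensing and induction, 1 was called: Tlr7, a sensor of single-stranded RNA, was lower in DKO-labelled cells of RIPmOVA hosts, at -1.07 (SE 0.21, adjusted p = 0.04).

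Of the 82 further interferon-stimulated genes tested, some were called. Between hosts in OT-II cells 2 were called higher and 2 lower, in DKO-labelled cells 5 higher and 0 lower, and between genotypes in RIPmOVA hosts 3 higher and 1 lower, against 1.23%, 1.68% and 1.07% of all genes in either direction. No gene of the pathway lists was called between genotypes in WT hosts or in the interaction. In OT-II cells the membrane proteins Ifitm2 and Ifitm1, which restrict viral entry, rose by 2.54 (SE 0.34, adjusted p = 0.007) and 2.60 (SE 0.48, adjusted p = 0.03) in RIPmOVA hosts. Ms4a6b and Ms4a4b, membrane proteins of T cells, fell there, with -1.33 (SE 0.20, adjusted p = 0.015) and -1.34 (SE 0.27, adjusted p = 0.041). Tor3a had 0.89 (SE 0.18, adjusted p = 0.04), under the size for a call. In DKO-labelled cells the checkpoint ligand Cd274 rose by 1.80 (SE 0.22, adjusted p = 0.0036) and Ms4a4c by 2.44 (SE 0.37, adjusted p = 0.0094), and Ly6e had 0.91 (SE 0.14, adjusted p = 0.011), under the size for a call. The chemokine Cxcl10, which attracts T cells, was 1.38, 0.469 and 0.205 RPKM in WT and 8.50 and 5.42 in RIPmOVA hosts. Cxcl10, the guanylate-binding protein Gbp5 and Ifitm2 were the other 3 called, and are named after their values were seen. Between genotypes in RIPmOVA hosts Ms4a6b was higher in DKO-labelled cells by 1.27 (SE 0.20, adjusted p = 0.016), Ms4a4b by 1.51 (SE 0.27, adjusted p = 0.025) and Ms4a4c, named after its values were seen, by 1.96 (SE 0.41, adjusted p = 0.045), and Ifitm1 was lower, at -2.23 (SE 0.48, adjusted p = 0.0496). Lap3 and Parp11 had 0.97 (SE 0.15, adjusted p = 0.016) and -0.78 (SE 0.14, adjusted p = 0.024), under the size for a call.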

How the data were processed

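Bulk RNA sequencing was made from 9 libraries of sorted thymocytes. Per the methods of the study, the authors made cDNA with a SMART-seq v4 kit and libraries with Nextera XT, sequenced paired ends, aligned reads to mm10 with STAR and GENCODE vM17, removed duplicates with Picard and counted exonic reads per Entrez gene with GenomicRanges. The deposited values are RPKM, rounded to 3 decimals, beside the exon length of each gene. Whether strand was used, and the versions of the aligner and of Picard, were not given in the sources used here.

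The 42 genes, their role classes and the pathway and marker lists were chosen with earlier results of these data known. The filter required 1 RPKM or more in 2 or more libraries. Values entered limma 3.58.1 (R 4.3.3) as log2(RPKM + 0.5), with 1 mean per group and a shared spread over the 9 libraries (eBayes with an intensity trend). Fold changes are on that scale, which understates changes of low genes. Adjusted p values are two-sided, by Benjamini-Hochberg over the 11569 genes. Calls took both an adjusted p of at most 0.05 and a log2 change of 1 or more in size. On 3 simulated data sets for the host comparison in OT-II cells, of 10725 to 10761 genes with 200 changed, 93.5% of changed genes were called and 6.91% of calls were unchanged genes. All planted changes were larger than the size for a call. The noise was the same for every gene, with no difference between chimeras, unlike the measured data. Both percentages describe those data sets only. In the host comparison in OT-II cells the standard errors of the 42 genes were 0.12571 to 0.7803 on the log2 scale. How often a change in the 42 genes would be called was not tested. No exact permutation test of a single gene was used, since groups of 2 and 3 libraries cannot reach a p of 0.05.

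Depth was recovered from the RPKM steps, since each step is 1 read: 100% of the low values were whole reads within 0.1 read. Read numbers cover counting error only. The labels give 1 mouse per chimera, so same-numbered libraries of a host are paired by animal, and numbers do not pair hosts. Deviations of the paired libraries from their group means correlated at 0.25 to 0.62 over the 42 genes and at -0.24 to 0.01 over all genes. In a group of 2 libraries the deviations mirror each other, so both RIPmOVA chimeras gave the same 0.25. The 0.62 of WT chimera 2 likewise used the reversed OT-II deviations of WT chimera 1, which had 0.40. These values are therefore not separate estimates of the pairing. The pairing was fitted as an alternative.

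Values by library were given for the member with the highest mean in each role class, except Gbp2 (group means) and Zbp1, Irf7 and Dtx3l (ranges). The 3 members with the smallest p in each of the 5 comparisons were named with their statistics, since no member passed the adjusted p. Of the pathway lists, up to 3 genes per list and direction past the adjusted p were named. Positions and overlaps came from GENCODE vM21 (GRCm38, the build that mm10 names), matched by symbol for 42 of 42 genes, and promoters from RefSeq (GRCm38.p6). Alternatives were pseudocounts of 0.1 and 1, no filter and a filter at 5 RPKM, median-of-ratios and quantile scaling, a fit to the libraries compared only, no intensity trend, adjusted p alone, sensory receptor reads as a covariate, replicate blocks, leaving out each library, and, added after the data were seen, leaving out both libraries of WT chimera 1. Python 3.11.15 with pandas 2.3.3, numpy 2.4.6 and matplotlib 3.10.9 was used for tables and plots. One gene of the pathway lists is not reported here.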

Additional observations from a re-analysis of the deposited data

How the results depend on the processing

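In each of the 5 comparisons 0 of 42 members were called, and this held under every alternative except those named here. Between genotypes in RIPmOVA hosts 1 member, Ifi44, was called when only the libraries compared were fitted, with the chimera as a replicate block, and without both libraries of WT chimera 1. Leaving out 1 library at a time gave 0 to 1 called. Between hosts in OT-II cells leaving out 1 library gave 0 to 1 called, the 1 being Ifi213. Between hosts in DKO-labelled cells 3 members were called without both libraries of WT chimera 1. The replicate block changed no other call: with the chimera as a block the members' median was 0.21 between genotypes in RIPmOVA hosts, 0.24 in WT hosts and 0.04 for the interaction. Between hosts, where the same number is only a name, blocking by number gave 0 called and medians of -0.14 (OT-II) and -0.11 (DKO-labelled). Leaving out 1 library at a time moved the median between -0.28 and 0.06 for hosts in OT-II, -0.11 and 0.23 for hosts in DKO-labelled cells, -0.12 and 0.28 for genotypes in WT hosts, 0.19 and 0.28 for genotypes in RIPmOVA hosts, and -0.09 and 0.35 for the interaction. The extremes in the host comparison of OT-II cells came from leaving out either OT-II library from WT hosts. The precision is limited by groups of 2 or 3 libraries and by read depth, which were not compared.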

Other observations

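Most genes of the interferon ligands themselves did not pass the filter. Of 21 ligand genes, 4 passed the filter on low values in these cells. Ifng, the type II interferon, was 1.68 and 1.48 RPKM in the OT-II libraries from RIPmOVA hosts and at most 0.185 RPKM in the other 7 libraries. Its log2 fold change between hosts in OT-II cells was 1.88 (SE 0.45, adjusted p = 0.077) and that between genotypes in RIPmOVA hosts -1.78 (SE 0.45, adjusted p = 0.077), neither past the threshold (limma). Ifnb1, the type I interferon of the first wave, was 3.52 and 0.116 RPKM in OT-II cells and 0.547, 2.58 and 0.532 in DKO-labelled cells of the WT hosts. In RIPmOVA hosts it was 0.161 and 0.605 RPKM in OT-II cells and 2.87 and 3.51 in DKO-labelled cells. The libraries with more than 2 RPKM of Ifnb1 were the 4 in which sensory receptor genes had the most reads, at 1043 to 1484 RPM, and the DKO-labelled library of WT chimera 1, in which the interferon-stimulated genes were highest, was not among them. The part of those reads in the Ifnb1 level was not tested.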
